A study of Homo sapiens with 24 samples.

Results

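L-428 is an established cell line of Hodgkin lymphoma, and its expression without a drug was compared here with that of KM-H2, L-540 and SUP-HD1, the 3 other Hodgkin lymphoma lines of the study. The arrays were chosen by their labels alone: 3 of the 24 arrays hold L-428 cells labelled as control, and they were set against 9 control arrays, 3 from each other line. A control culture received DMSO vehicle for 2 h. The other 12 arrays hold the same 4 lines after 2 h with 10 µM AEZS-136, which the study describes as an inhibitor of PI3K and ERK signalling, and they entered the filter and the fit and were used to set the differences between the lines beside those on control arrays. In the study, the compound killed L-540 and SUP-HD1 cells, whereas KM-H2 and L-428 resisted it. Each line was grown from a single tumour, so the comparison is between these lines and not between kinds of lymphoma. Whether the 3 arrays of a group stem from 3 cultures or from 1 is not stated in the labels, so that the p-values rest on array-to-array spread that may be technical. The study mentions independent experiments for arrays of a later time point that are not used here.

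Hodgkin and Reed-Sternberg cells, the tumour cells of classical Hodgkin lymphoma, are thought to descend from germinal centre B cells that have lost most of the B cell programme. They are known for constant signalling through NF-kB and JAK-STAT, for the surface receptor CD30, and for chemokines and cytokines that draw T cells and eosinophils around them. Cell lines such as L-428 keep several of these traits and differ in others, including the display of antigen on MHC molecules and the activity of interferon-induced genes.

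RNA was measured on Illumina bead arrays, and levels are given as normalized log2 signal, on which a difference of 1 is 2-fold and an offset of 16 places undetected probes a little above 4. Of 44053 probes used, 24578 passed the filter on detection, for 13406 genes with a symbol. Between 17002 and 19247 probes were detected on a control array, and array medians of the deposited signal ran from 96 to 127.8. Arrays of the same group correlated at 0.988 to 0.993 over these probes, and control arrays of different lines at 0.861 to 0.904. The group mean of L-428 correlated at 0.887 with KM-H2, 0.896 with L-540 and 0.905 with SUP-HD1, as a description across probes, which are not independent.

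The label of L-428 was compared with its markers. Of 11 measured genes of the list of Hodgkin cell markers, 5 were higher in L-428 than in the mean of the lines (45.5%), 2 were lower (18.2%) and 4 were not called, and 9 were detected on all 3 arrays. CCL17 and TRAF1 (1.73) were among the higher ones, and JUNB (-1.34) and CD274 (-1.76) were the lower ones. The summed linear signal of the 11 genes was 58298 to 60456 in L-428, 30635 to 33158 in KM-H2, 24185 to 24852 in L-540 and 41291 to 42268 in SUP-HD1. In such sums, here and below, the brightest genes weigh most. The median log2 difference of the 11 genes was 0.30. FSCN1, the actin-bundling protein fascin that pathologists use as a marker of Reed-Sternberg cells, stood at 14.44, 14.30 and 14.30 on the L-428 arrays, at 14.17, 14.10 and 14.02 in KM-H2, at 11.73, 11.58 and 11.72 in L-540 and at a mean of 13.56 in SUP-HD1, where no array passed 13.61. Every L-428 value was above all others, and the mean difference was 1.24 (SE 0.0632, adjusted p = 5.10e-13 by limma). The step from KM-H2 was only 0.25, under the size of 0.4 set for a call. CD79B, a signalling chain of the B cell receptor, stood at 7.43, 7.18 and 6.73 in L-428, at 5.60, 5.50 and 5.90 in KM-H2, at 4.65, 4.76 and 4.57 in L-540 and at 4.55, 4.58 and 4.66 in SUP-HD1. The probe was not above background on any array of L-540 or SUP-HD1, so that L-428 was at least 3.90-fold and at least 4.29-fold higher than these, against the lowest detected level of each array, and 1.45 higher than KM-H2. Both further probes of CD79B differed by 0.14 and 0.30 from the mean of the lines and were not called. CD30 itself could not serve as a check, because its probe (TNFRSF8) was detected on 1 of 3 arrays in L-428, on 0 in KM-H2 and SUP-HD1 and on all 3 in L-540.

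**Figure D1:**
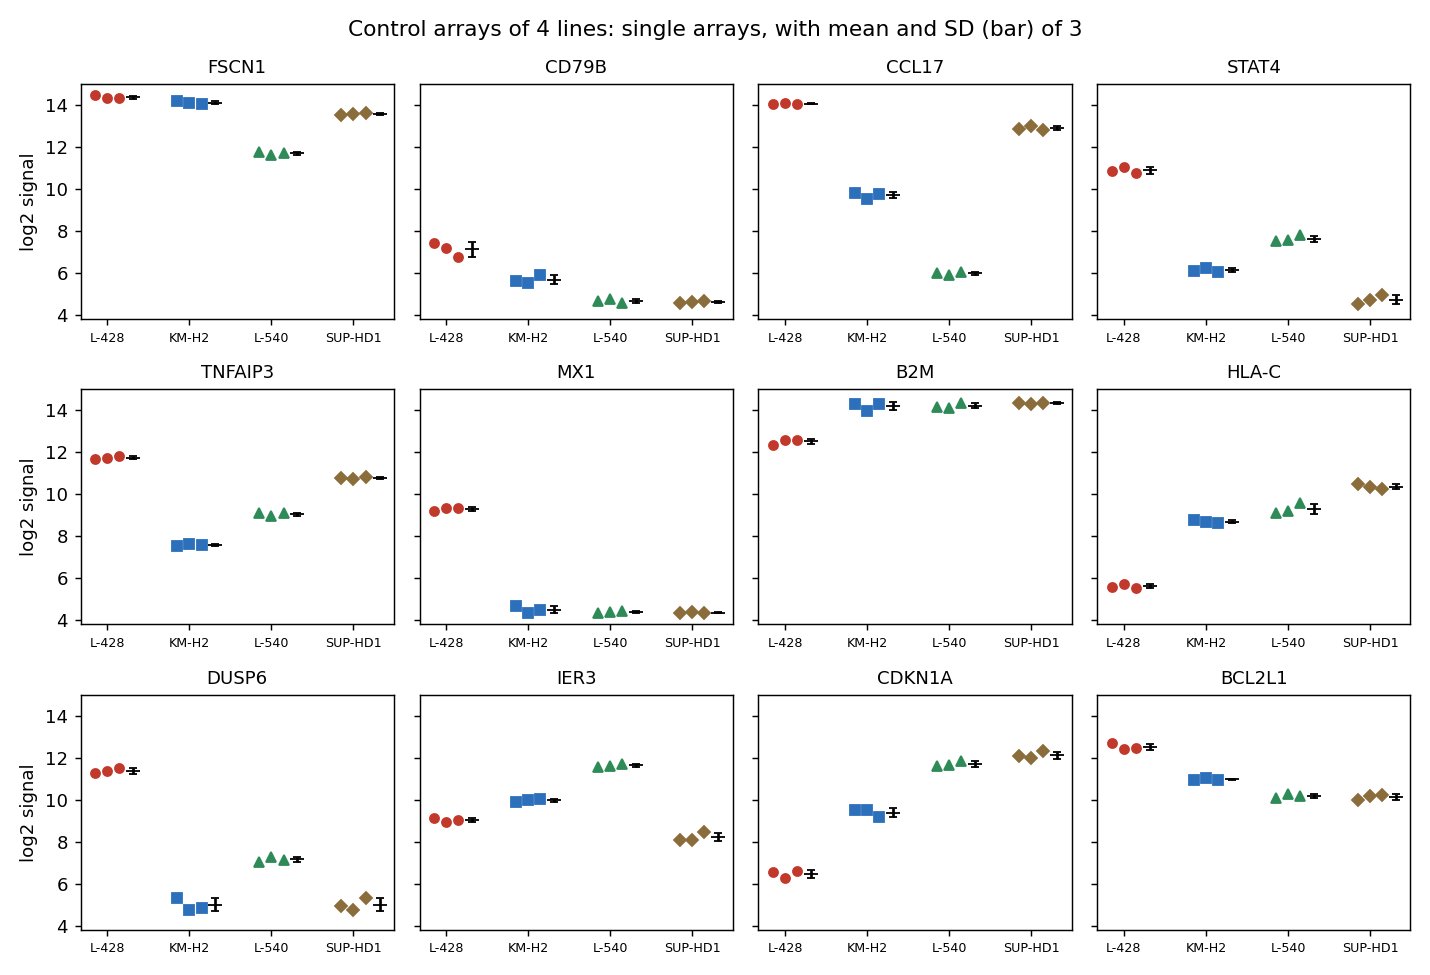
Normalized log2 signal (y axis) of 12 genes on the control arrays of the 4 lines (x axis). Symbols are single arrays, and the black bar beside them is the mean with the SD of 3 arrays. FSCN1 is high in all lines, whereas MX1 is above background in L-428 only, at 9.18 to 9.34.

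The main comparison set the mean of the L-428 control arrays against the mean of the 3 other lines, each line with equal weight, in a limma fit over all 24 arrays. Calls required a difference beyond 0.4 in size and an adjusted p below 0.05. Of the 24578 probes, 4846 were higher in L-428 (19.7%) and 5304 were lower (21.6%). The median over all probes was -0.03. Against the single lines, 11350 probes (46.2%) were called between L-428 and KM-H2, 10948 (44.5%) between L-428 and L-540, and 10556 (42.9%) between L-428 and SUP-HD1. These 3 comparisons share the L-428 arrays. A difference from the mean of the lines can rest on 1 other line alone, as for CR2 and GPR183 below. Probes were therefore also counted that were called the same way against each other line and had every L-428 value beyond all 9 others. There were 1812 such probes on the higher side (7.37% of those tested) and 1122 on the lower side (4.57%). By the same count, KM-H2 had 2526 and 1907, L-540 had 2183 and 1582, and SUP-HD1 had 2223 and 1495, so that L-428 had the fewest of the 4 lines in both directions. The difference from the nearest line was over 1 for 691 of the higher probes and under -1 for 265 of the lower ones. Of the genes higher than in each other line, 155 were detected in L-428 and on no control array of another line. They could pass the filter on detection through L-428 arrays alone, so that their detection there is no separate support. Of the lower genes, 57 were detected on all 9 control arrays of the others and on none of L-428. The excess of higher over lower probes depended on the filter. Among probes detected on all 24 arrays, 933 were higher and 904 lower than in each other line.

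The genes that stood highest above the nearest other line belonged to no single function. NDST4, an enzyme that modifies heparan sulfate chains, was at 12.40, 12.60 and 12.65 in L-428 and between 4.35 and 5.00 on the 9 other arrays, none of which detected it. L-428 was at least 189.7-fold higher than KM-H2, at least 168.5-fold higher than L-540 and at least 185.6-fold higher than SUP-HD1 (adjusted p = 6.75e-23 against the mean of the lines). PHGDH, the first enzyme of serine synthesis from glucose, was at 12.67, 12.61 and 12.65 in L-428 and between 4.48 and 5.07 elsewhere, with detection on 2 KM-H2 arrays only, a difference of 7.84 (SE 0.112, adjusted p = 5.39e-22). SPINT2, an inhibitor of the proteases that activate hepatocyte growth factor, was at 12.16, 12.32 and 12.05 against 4.40 to 4.77 on the other arrays, and was detected on none of them. For these genes the L-428 arrays and the rest were separated by more than 7 units, far beyond the spread between arrays. The genes named for distance, here and on the lower side, were chosen for it on the same arrays. Their adjusted p-values therefore describe the distance and do not test it.

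The other 11 genes had various roles. TSPAN8, a tetraspanin of the plasma membrane, differed by 7.42, IGSF3, a membrane protein with immunoglobulin domains, by 6.91, and ADGRV1, a very large adhesion receptor, by 5.37. CTHRC1, a secreted glycoprotein, differed by 5.70. Signalling proteins included GNG11, a gamma subunit of G proteins (6.71), and SH2D1B, an adaptor of receptors of the SLAM family (6.41). AMPH, amphiphysin of endocytic membranes, differed by 6.25, and E2F2, a transcription factor of the cell cycle, by 5.35. CYP4Z1, a cytochrome P450, differed by 7.37, EPDR1 by 6.96 and ARMCX2 by 5.60. All 14 were called against each other line, with a difference from the nearest line of 5.15 or more. Where no array of another line detected a gene, the size of the difference depends on the offset, and only a bound can be given. Against every other line, L-428 was at least 88.8-fold higher for EPDR1, 29.4-fold for ARMCX2, 28.5-fold for ADGRV1 and 26.8-fold for E2F2. The other lines were not all at background. KM-H2 had detectable IGSF3 at 6.45 and L-540 had detectable SH2D1B at 6.30, both on all 3 arrays, and SUP-HD1 detected AMPH on 2 of 3 arrays (mean 5.47) and CTHRC1 on all 3 (5.19). CYP4Z1, IGSF3, CTHRC1 and ADGRV1 have further probes, and all of them were called higher as well, although for CYP4Z1 they ranged from 2.25 to 7.05.

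**Figure D2:**
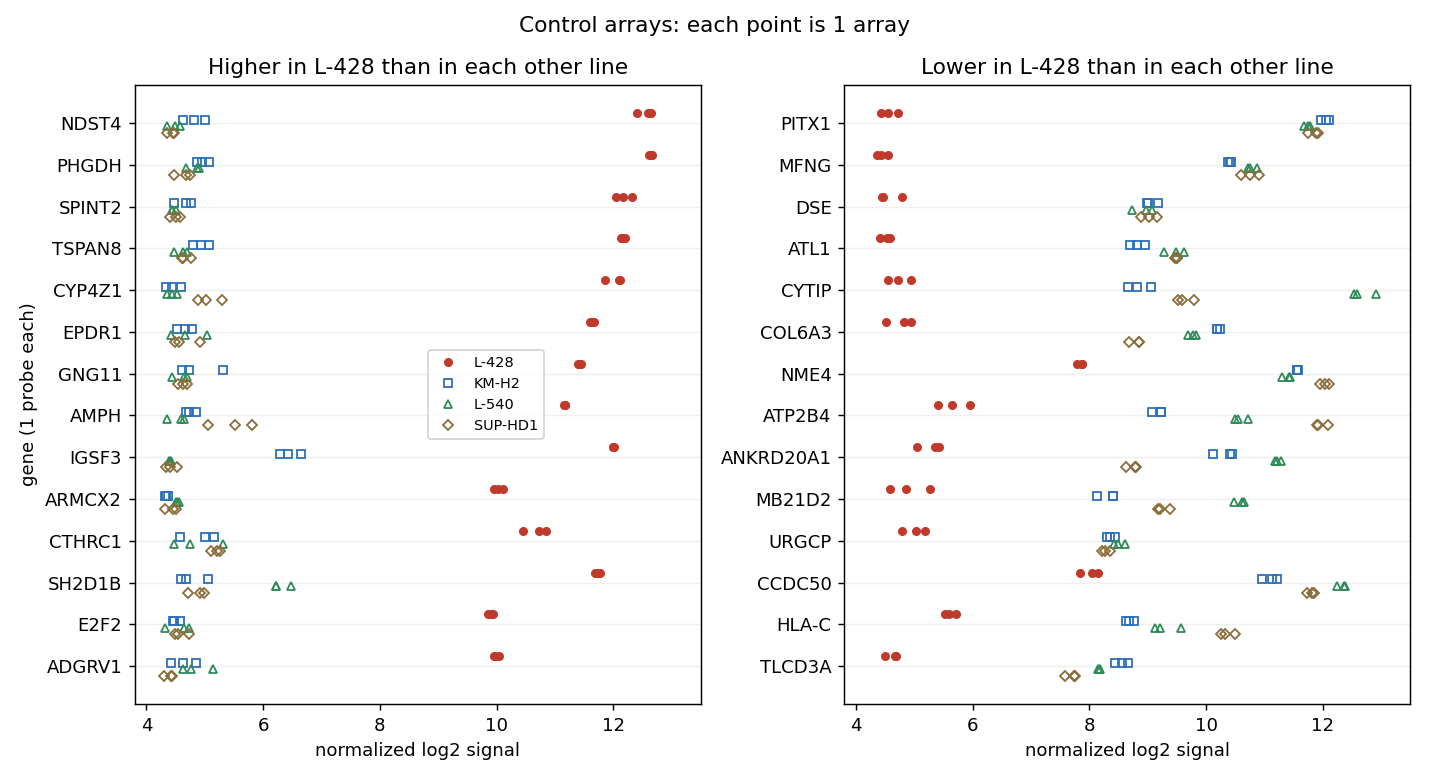
Normalized log2 signal (x axis) of the 14 genes each way with the greatest distance between L-428 and the nearest other line (y axis), chosen for that distance. Each point is 1 control array; L-428 lies between 9.85 and 12.67 for the genes in the left panel, and KM-H2 reaches 6.45 on average for IGSF3.

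On the lower side the distances from the nearest line were smaller, and reached from -7.16 to -3.07 over the 14 genes. PITX1, a homeobox transcription factor of limb and pituitary development, was at 4.55, 4.43 and 4.72 in L-428, at 12.10, 12.06 and 11.96 in KM-H2, at 11.77, 11.74 and 11.67 in L-540 and at 11.88, 11.75 and 11.91 in SUP-HD1. No L-428 array detected it, and it was at least 128.7-fold, 103.6-fold and 112.6-fold higher in the other lines, in that order (adjusted p = 1.77e-24). MFNG, a fringe glycosyltransferase that modifies Notch receptors, was at 4.36, 4.42 and 4.55 in L-428 and between 10.38 and 10.90 elsewhere (difference -6.20, SE 0.0680, adjusted p = 1.08e-23). PITX1 and MFNG were thus at background in L-428 only, and the arrays of the other 3 lines lay within 1 unit of each other.

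The other 12 genes likewise had various roles. CYTIP, which regulates adhesion of leukocytes through cytohesins, differed by -5.65, and its 2 further probes by -1.49 and -1.26, which did not place L-428 below each other line. ATP2B4, a calcium pump of the plasma membrane, differed by -4.91, COL6A3, a chain of collagen VI, by -4.82, and DSE, an epimerase of dermatan sulfate chains, by -4.43. ATL1, a GTPase that shapes the endoplasmic reticulum, differed by -4.75, and NME4, a mitochondrial nucleoside diphosphate kinase, by -3.82, though NME4 was still detected on all L-428 arrays at 7.84. The remaining genes were MB21D2 (-4.48), CCDC50 (-3.73), TLCD3A (-3.52), URGCP (-3.39), HLA-C (-3.84) and ANKRD20A1 (-4.82). ANKRD20A1 belongs to a family of near-identical copies, and its signal cannot be assigned to a single copy. A further probe of CCDC50 differed by -0.21 and was not called.

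The same comparison was then read by gene lists, with the probe of the highest mean for each gene. Over all 13406 genes, 21.4% were called higher and 25.1% lower, 8.13% were higher and 5.73% lower than in each other line, and the median difference was -0.05. These shares are the background for every list below. The lists were described by their counts and not tested.

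**Figure D3:**
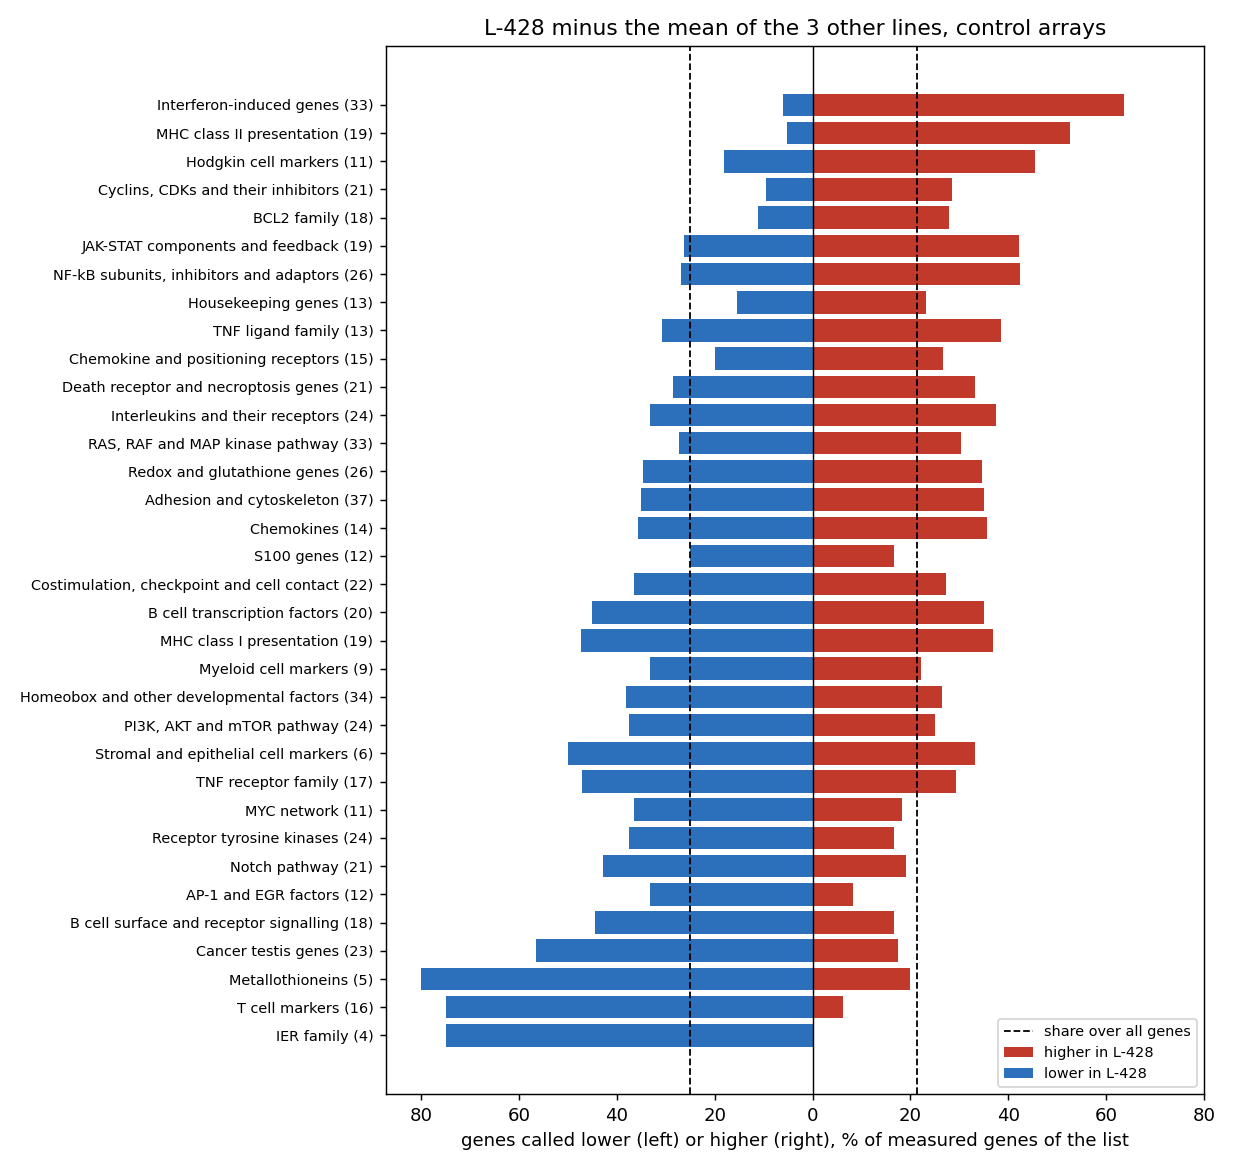
Share of the measured genes of 34 lists called higher (right, red) or lower (left, blue) in L-428 control arrays than in the mean of the other lines, in percent (x axis), with the number of measured genes behind the list's name (y axis). Dashed lines are the shares over all genes, 21.4% higher and 25.1% lower; interferon-induced genes reach 63.6% higher.

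Interferon-induced genes had the highest share of higher calls of the lists. Of 33 measured genes, 21 were higher in L-428 (63.6%), 2 were lower (6.06%) and 10 were not called, and the median difference was 1.13. In 11 of them L-428 exceeded each other line. MX1, a GTPase that blocks viral replication, was at 9.18, 9.34 and 9.32 in L-428 and between 4.33 and 4.67 elsewhere, where no array detected it. It was at least 19.7-fold, 17.5-fold and 19.2-fold higher than in KM-H2, L-540 and SUP-HD1 (adjusted p = 3.06e-21). IFIT3, which binds viral RNA complexes, differed by 3.66, IFI44L by 3.58 and GBP4, a guanylate-binding protein, by 2.65. The genes lower in L-428 were GBP2 (-1.02) and IFI16, a sensor of DNA (-0.73), both named after their values were seen. L-540 shared part of the pattern: its mean was 10.82 for IFI6 and 10.60 for IFI35, against 10.91 and 10.42 in L-428, so that neither was counted as higher than in each other line. RSAD2 (-0.01), OAS1 (-0.13) and IFITM3 (-0.08) of the same family of responses were not called.

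Antigen presentation was described for each MHC class in turn. Of 19 genes of MHC class II presentation, 10 were higher in L-428 (52.6%) and 1 was lower (5.26%), with a median of 0.54. HLA-DQB1, a chain of the class II molecule, was at 11.37, 11.08 and 11.07 in L-428, at 10.43, 10.79 and 10.52 in KM-H2, at 8.35, 8.65 and 7.95 in L-540 and at 4.73, 4.49 and 4.75 in SUP-HD1, where it was not detected. CTSS, a protease that trims the invariant chain, differed by 1.22, HLA-DOA by 1.21 and HLA-DOB, the partner of HLA-DOA, by -1.82. CIITA, the master regulator of class II genes, differed by 0.94 and was at 7.80 in L-428 and 7.69 in KM-H2. HLA-DQB1 and CTSS were the 2 of the 19 that exceeded each other line.

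In MHC class I presentation, 7 of 19 genes were higher (36.8%) and 9 were lower (47.4%), with a median of -0.15, or -0.43 when all probes of a gene were averaged. B2M, the light chain that every class I molecule needs, was at 12.36, 12.60 and 12.58 in L-428, at 14.27, 13.96 and 14.30 in KM-H2, at 14.17, 14.10 and 14.33 in L-540 and at 14.35, 14.27 and 14.36 in SUP-HD1. The difference was -1.72 (SE 0.0858, adjusted p = 3.43e-13), and no L-428 value reached the others. HLA-C was at 5.60, 5.71 and 5.53 in L-428 against 8.63 to 10.50 elsewhere (-3.84). TAP1, a subunit of the peptide transporter in the endoplasmic reticulum, differed by -1.08, and HLA-E by -0.78. HLA-B went the other way at 1.63, being 12.90 in L-428, 13.33 in KM-H2, 12.63 in L-540 and 7.85 in SUP-HD1. HLA genes are alike in sequence and vary between people, and how well each probe matches the alleles of each line was not tested.

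Genes of costimulation and contact with T cells were divided. Of 22 measured, 6 were higher (27.3%) and 8 lower (36.4%), and 5 exceeded each other line: ICAM3, an adhesion molecule of leukocytes (4.56), CD58, the ligand of CD2 (2.99), LGALS3, galectin-3 (2.32), CD47, which restrains phagocytes (1.44), and CD86, a ligand of CD28 (1.18), the last named after its value was seen. For LGALS3, CD47 and CD86 a further probe did not give the same call. CD274 and PDCD1LG2, the ligands of PD-1, had -1.76 and -0.73, and neither was detected in L-428 or KM-H2, whereas SUP-HD1 was at 8.16 and 6.31 and L-540 at 5.77 and 4.66. CD48, a SLAM family ligand, was at 4.34 in L-428 and 4.42 in SUP-HD1, both without detection, against 10.25 in KM-H2 and 11.29 in L-540.

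Several chemokines that recruit T cells were higher in L-428. CCL17, a ligand of CCR4 and a serum marker of the disease, was at 14.04, 14.07 and 14.04 in L-428, at 9.77, 9.51 and 9.75 in KM-H2, at 5.98, 5.89 and 6.04 in L-540 and at 12.86, 12.98 and 12.78 in SUP-HD1. The difference from the mean of the lines was 4.54 (SE 0.120, adjusted p = 8.16e-18), and from SUP-HD1, the nearest line, 1.17 (adjusted p = 7.24e-07). CCL1 was at 11.05, 10.88 and 10.86 in L-428 and 6.90 to 7.08 in SUP-HD1, and was undetected in the other lines. CX3CL1, the membrane-bound fractalkine, differed by 4.75 but by far less from KM-H2, which was at 10.73 against 11.38. Of 14 measured chemokines, 5 were higher (35.7%) and 5 lower (35.7%). Among the lower ones, CXCL10, an attractant of effector T cells, was at 8.20 in L-428, 11.46 in KM-H2, 4.92 in L-540 and 12.39 in SUP-HD1. CCL22, the other CCR4 ligand, was not analysed here.

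CCR4, the receptor of CCL17, was itself higher in L-428, at 9.88, 9.89 and 9.57 against 4.43 to 4.99 on the other arrays, a difference of 5.14 (SE 0.158, adjusted p = 8.92e-17). It was the only 1 of 15 chemokine and positioning receptors to exceed each other line, and 4 of them were higher (26.7%) and 3 lower (20.0%). ACKR3, a scavenging receptor of CXCL12, was detected in KM-H2 only (10.15 against 4.44 in L-428). CXCR3 differed by 1.65. GPR183, an oxysterol receptor that positions B cells, was at 10.55 in L-428, 5.10 in KM-H2, 11.25 in L-540 and 11.22 in SUP-HD1, and its difference of 1.36 therefore rests on KM-H2.

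Among interleukins and their receptors, 9 of 24 were higher (37.5%) and 8 lower (33.3%). IL5, the growth factor of eosinophils, was detected on all 3 L-428 arrays at a mean of 8.16 and on 2 of the 9 others, with means of 4.70 to 4.80 (difference 3.40). IL18R1 differed by 2.81. IL2RA, the alpha chain of the IL-2 receptor, was at 4.59, 4.67 and 4.58 in L-428, at 5.35, 5.23 and 5.19 in KM-H2, at 11.16, 11.25 and 10.93 in L-540 and at 9.96, 10.05 and 10.19 in SUP-HD1. The probe was not detected in L-428, and L-540 and SUP-HD1 were at least 67.7-fold and 32.7-fold higher. IL27RA differed by -2.88. IL13 and IL4, cytokines of type 2 immunity, were not detected in L-428, KM-H2 or L-540 and were at 7.80 and 7.20 in SUP-HD1.

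In the JAK-STAT pathway, 8 of 19 genes were higher (42.1%) and 5 lower (26.3%). STAT4, which carries signals of IL-12 and type I interferon, was at 10.84, 11.04 and 10.74 in L-428, at 6.10, 6.22 and 6.04 in KM-H2, at 7.49, 7.57 and 7.77 in L-540 and at 4.52, 4.69 and 4.94 in SUP-HD1 (difference 4.73, SE 0.128, adjusted p = 1.21e-17). STAT5A differed by 2.02, STAT3 by 1.39 and STAT6 by 1.20, and all exceeded each other line, STAT3 and STAT6 being named after their values were seen. PTPN6, the phosphatase SHP-1 that dampens cytokine receptors, was at 6.92 in L-428 and 5.50 in SUP-HD1, and was undetected in KM-H2 and L-540. On the lower side were JAK1 (-1.06) and PIM2, a survival kinase induced by STATs (-2.05). JAK2 differed by 0.42, with L-428 at 6.73 and SUP-HD1 at 7.75.

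In the NF-kB list, 11 of 26 genes were higher (42.3%) and 7 lower (26.9%). TNFAIP3, the ubiquitin-editing inhibitor A20, was at 11.65, 11.73 and 11.81 in L-428, at 7.53, 7.62 and 7.59 in KM-H2, at 9.09, 8.94 and 9.08 in L-540 and at 10.75, 10.72 and 10.82 in SUP-HD1 (difference 2.60, SE 0.0681, adjusted p = 7.23e-18). TNIP1, which binds A20, differed by 1.08. NFKBIZ, an inducible nuclear cofactor, was at 5.87, 5.73 and 6.17 in L-428 and 7.86 to 9.86 elsewhere (-2.74), and TRAF3, an adaptor that keeps the non-canonical pathway in check, differed by -1.14. A further probe of NFKBIZ did not give the same call. Among the subunits, NFKB2 differed by 0.89 and REL by 1.90, but the NFKB2 mean in KM-H2 was 9.27 against 9.42 in L-428, and that of REL 7.79 against 7.97. RELA differed by -0.57. The inhibitor NFKBIA (0.12) and NFKB1 (-0.09) were not called.

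The receptors of the TNF family gave 5 of 17 higher (29.4%) and 8 lower (47.1%), and its ligands 5 of 13 higher (38.5%) and 4 lower (30.8%). TNFRSF14, the receptor HVEM, differed by 1.75 and FAS by 0.76, and both exceeded each other line. TNFRSF1B, the second TNF receptor, was not detected in L-428 or KM-H2 and was at 9.66 in L-540 and 7.19 in SUP-HD1. TNFRSF4, or OX40, was at 9.78 in KM-H2 and 5.18 in L-428, where 2 of 3 arrays detected it. CD70, the ligand of CD27, was lower in L-428 than in each other line, at 11.70 against 12.43 to 13.11. EDA, ectodysplasin, differed by 0.75 and was detected in L-428 only. LTA, lymphotoxin alpha, differed by 1.10, which rests on L-540 (8.71 against 12.13 in L-428), and TNFSF13B by -0.83.

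The B cell programme was unevenly kept. Of 18 measured genes of the B cell surface and receptor, 3 were higher in L-428 (16.7%) and 8 lower (44.4%), with a median of -0.21. On the higher side, FCER2, or CD23, was at 6.27 in L-428 and was undetected on all but 2 of the other arrays (difference 1.55), beside CD79B above. SWAP70, a signalling protein of activated B cells, was lower than in each other line (-1.52). CR2, the complement receptor CD21, was at 12.47 in KM-H2 and 4.79 to 5.05 in the other lines. The summed linear signal of the 18 genes was 2252 to 2357 on the L-428 arrays, 10338 to 11359 in KM-H2, 3121 to 3390 in L-540 and 1425 to 1484 in SUP-HD1. MS4A1, or CD20, had no detection in L-428 or KM-H2.

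Of 20 B cell transcription factors, 7 were higher (35.0%) and 9 lower (45%). BACH2, a repressor that holds back plasma cell fate (2.35), and IKZF1, Ikaros, with means of 11.51 in L-428 and 9.21 to 10.92 elsewhere, were both above each other line. ID2, which blocks the E proteins of early B cells, was lower than in each other line, at 9.47 against 11.61 to 13.02 (-2.69). EBF1, a founder of the B cell programme, was at 4.90 with detection on 1 of 3 arrays in L-428, and at 5.58, 6.81 and 7.89 in KM-H2, L-540 and SUP-HD1 (-1.85). TCF3, the E protein E2A, differed by -1.09, named after its value was seen. IRF4, a factor of late germinal centre B cells, was at 10.48 in L-428 and at means of 9.95 to 10.72 elsewhere and was not called. The median of this list was -0.09 and turned to 0.01 when all probes of a gene were averaged.

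Among the lists for other cell types, T cell markers gave 1 of 16 higher (6.25%) and 12 lower (75.0%). The exception was GATA3, a factor of type 2 helper T cells, which was at 8.89 in L-428 and 6.76 to 7.68 elsewhere. Several of the lower genes were high in a single other line. CD247, a chain of the T cell receptor complex, was at 10.57 and PRF1, perforin, at 10.74 in L-540, while CD2 was at 9.70 in L-540 and 7.18 in SUP-HD1. None of the 12 was lower than in each other line. The summed signal of the 16 genes was 1085 to 1166 in L-428, 4719 to 4890 in KM-H2, 5617 to 6041 in L-540 and 1340 to 1456 in SUP-HD1. CD3D, CD4, CD8A, GZMB and PRF1 were detected on no L-428 array. Each sample was a bulk culture of a single cell line, in which fewer cells with such RNA and less RNA per cell cannot be told apart.

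Of 9 myeloid markers, 2 were higher (22.2%) and 3 lower (33.3%). CSF1R, the receptor of macrophage colony stimulating factor, was at 4.80, 4.88 and 5.02 in L-428, where 1 array detected it, and between 7.46 and 8.74 on the 9 other arrays (-3.37, SE 0.0928, adjusted p = 1.57e-17). Its ligand CSF1 stood the other way at 7.52 in L-428 and 4.55 to 5.10 elsewhere (2.70), named after its value was seen. CD14 differed by -1.44 through KM-H2, at 9.36, ITGAX by 1.04 and CD68 by 0.61. The summed signal of the 9 genes was 3826 to 4469 in L-428, which overlapped with 4189 to 4917 in L-540 and 4120 to 4502 in SUP-HD1 and lay below 4520 to 4975 in KM-H2. Of 6 stromal and epithelial markers, PECAM1 (2.60) and CDH1, E-cadherin (1.25), were higher than in each other line, COL4A1 (-1.35) and COL1A1 (-0.73) were lower through KM-H2, and the summed signal was 839 to 897 in L-428, 1245 to 1363 in KM-H2, 747 to 845 in L-540 and 1145 to 1269 in SUP-HD1. The part of these markers in the other results was not tested.

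PI3K and ERK are the pathways aimed at by the compound of the study, and their genes were read on control arrays for that reason. In the PI3K, AKT and mTOR list, 6 of 24 were higher (25%) and 9 lower (37.5%). PIK3CG, the gamma catalytic subunit of PI3K, was at 9.97 in L-428 and 8.49 in SUP-HD1 and was undetected in KM-H2 and L-540 (difference 4.01). INPP4B, a phosphatase of PI3K products, differed by 3.37, PHLPP1, a phosphatase of AKT, by -2.08 with no detection in L-428, and TSC1, a brake on mTOR, by -0.74, on 1 of its 3 probes. The kinase AKT1 (-0.07) and MTOR (-0.01) were not called.

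In the RAS, RAF and MAP kinase list, 10 of 33 were higher (30.3%) and 9 lower (27.3%), and 6 of them exceeded each other line. DUSP6, the phosphatase that removes the activating marks of ERK and is itself an ERK target, was at 11.25, 11.35 and 11.50 in L-428, at 5.34, 4.76 and 4.86 in KM-H2, at 7.05, 7.26 and 7.15 in L-540 and at 4.92, 4.74 and 5.33 in SUP-HD1. The difference was 5.66 (SE 0.176, adjusted p = 1.11e-16), and no value of another line reached those of L-428. SPRY2, a further feedback inhibitor, was detected in L-428 only (3.71), and SPRED1 differed by 2.72. Other members of the same feedback did not follow: DUSP5, a nuclear ERK phosphatase, was lower than in each other line (-2.66), and SPRY1 was at 9.48 in L-540 against 8.31 in L-428. The kinases MAP2K1 (0.95) and MAPK3, or ERK1 (0.68), exceeded each other line and were named after their values were seen, while MAP2K2 (-0.24) was not called.

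IER3, the immediate early gene that the study examined, was at 9.12, 8.93 and 9.05 in L-428, at 9.90, 10.00 and 10.01 in KM-H2, at 11.55, 11.61 and 11.72 in L-540 and at 8.10, 8.09 and 8.44 in SUP-HD1. L-428 was thus above SUP-HD1 by 0.82 (adjusted p = 1.91e-07) and below KM-H2 and L-540, and the mean difference of -0.90 (SE 0.0766, adjusted p = 1.99e-09) hides the order SUP-HD1, L-428, KM-H2, L-540. The study describes IER3 without the drug as similar in its lines by western blot. That is a measure of protein, whereas these values are RNA. Of the 4 genes of the family, 3 were lower in the mean (IER5L -1.26, IER3, and IER5 -0.83) and IER2 was not called (-0.04). In the AP-1 and EGR list, 1 of 12 genes was higher (8.33%) and 4 were lower (33.3%). JUNB, a factor prominent in Hodgkin cells, was lower than in each other line at 8.98 against 10.12 to 10.48 (-1.34), as were JUND (-0.79) and FOSL1 (-1.48). BATF3 differed by 0.41, and BATF (-0.03) was not called.

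Cell cycle and death genes showed large single differences. CDKN1A, the cyclin-dependent kinase inhibitor p21, was at 6.55, 6.26 and 6.60 in L-428, at 9.49, 9.51 and 9.15 in KM-H2, at 11.59, 11.66 and 11.86 in L-540 and at 12.08, 11.98 and 12.30 in SUP-HD1 (-4.60, SE 0.101, adjusted p = 4.61e-19). CDKN2A, which encodes the inhibitor p16, was at 8.53 in L-428 and 7.36 in SUP-HD1, and undetected in KM-H2 and L-540, where L-428 was at least 11.7-fold and 10.4-fold higher. CDK6 differed by 1.37, and E2F2 is described above. Of 21 cyclins, CDKs and their inhibitors, 6 were higher (28.6%) and 2 lower (9.52%).

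Within the BCL2 family, 5 of 18 were higher (27.8%) and 2 lower (11.1%). BCL2L1, or BCL-XL, was at 12.68, 12.42 and 12.47 in L-428 and between 9.97 and 11.01 elsewhere (2.11, SE 0.0792, adjusted p = 2.87e-15). BCL2 was the reverse, at 6.97, 7.09 and 7.17 in L-428 and between 8.45 and 10.19 elsewhere (-2.07, SE 0.0828, adjusted p = 8.15e-15). Their further probes gave the same calls. BCL2L10 was detected in L-428 only (4.19), and HRK, a killer protein, was at 8.70 in KM-H2 and at or near background in the other lines. Of 21 death receptor and necroptosis genes, 7 were higher (33.3%) and 6 lower (28.6%). CFLAR, the inhibitor c-FLIP of death receptors, exceeded each other line (1.82), while CASP4 (-2.43) and CASP1 (-1.96), inflammatory caspases, were at or near background in L-428 and SUP-HD1 and detected in KM-H2 and L-540.

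Developmental pathways added to the differences seen for PITX1 and MFNG. Of 21 Notch pathway genes, 4 were higher (19.0%) and 9 lower (42.9%), with a median of -0.25. NOTCH1, the receptor, was lower than in each other line, at 6.85 against 7.80 to 8.77 (-1.54). HES4 and HES6, of the HES family of transcription factors, were higher than in each other line and differed by 4.78 and 2.78. Of 34 homeobox and other developmental factors, 9 were higher (26.5%) and 13 lower (38.2%). HOPX, a homeodomain protein that does not bind DNA, was at 5.73 in L-428, 6.81 in KM-H2, 12.54 in L-540 and 12.87 in SUP-HD1 (-5.01). SOX4, a factor of early lymphoid cells, differed by 2.82 and HOXC4 by 2.65.

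Genes of redox balance were of interest because the study measured reactive oxygen species. Of 26, 9 were higher (34.6%) and 9 lower (34.6%), and 5 were lower than in each other line. NQO1, a quinone reductase, differed by -1.93 on the probe used, and its further probe did not give the same call. HMOX1, heme oxygenase, was at 5.57 in L-428 and 7.30 to 7.77 elsewhere (-1.91), and PRDX1, a peroxidase, was at 12.10 in L-428 and 13.35 to 13.75 elsewhere. SOD2, the mitochondrial superoxide dismutase and an NF-kB target, was higher than in each other line (1.02). Among 37 genes of adhesion and cytoskeleton, 13 were higher (35.1%) and 13 lower (35.1%). LIMA1 (1.99), which stabilizes actin filaments, MSN (1.43), which ties actin to the membrane, and ITGAL (1.03), the alpha chain of LFA-1, were higher than in each other line, and ITGB1, integrin beta 1, was lower (-1.14). Of 13 housekeeping genes, 3 were higher (23.1%) and 2 lower (15.4%). ACTB (-0.03) and GAPDH (0.07) were not called, while YWHAZ (1.24) and PGK1 (0.81) were above each other line and PPIA differed by 0.97. B2M, also in this list, was below each other line (-1.72).

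Where these genes lie was looked up in a RefSeq table (GRCh38.p14), of which only names, chromosomes and the order of genes were used. Of 492 genes on chromosome 8, 38.0% were higher in L-428 and 13.2% lower, and 18.9% were higher than in each other line against 8.13% over all genes. The median difference on this chromosome was 0.37 from KM-H2, 0.29 from L-540 and 0.04 from SUP-HD1. Chromosome 17 had 30.8% higher and 13.8% lower of 827 genes, chromosome 6 had 31.2% higher and 21.3% lower of 738, and chromosome 21 had 28.6% higher and 17.1% lower of 140. The median from KM-H2, L-540 and SUP-HD1, in that order, was 0.225, 0.073 and 0.151 on chromosome 17. It was 0.179, 0.004 and 0.054 on chromosome 6. On chromosome 21 it was -0.062, 0.018 and 0.542, so that the shift there rests on SUP-HD1. In the other direction, 39.5% of 233 genes on chromosome 13 and 32.3% of 362 on chromosome 20 were lower, and 9.87% and 9.67% were higher. The median on chromosome 13 was -0.17, -0.38 and -0.19 from KM-H2, L-540 and SUP-HD1. On chromosome 20 it was 0.033, -0.36 and -0.147, so that L-428 was not lower than KM-H2 there. On the scale of single neighbours, RPP40, LYRM4, FARS2, SSR1 and RIOK1 of chromosome 6, 5 successive measured genes that all other lines detected, were each lower in L-428 than in each other line. PHLPP1, BCL2, KDSR and VPS4B of chromosome 18, and UFC1, USP21, PPOX and B4GALT3 of chromosome 1, were among 6 such runs of 4. Another of the 6 was SERF1B, SMN2, SERF1A and SMN1 of chromosome 5. These are near-identical gene copies, and their signals may not be separate. How often such runs would be expected was not tested. DNA copy number was not measured in these data, and genes on a chromosome are not independent of each other.

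**Figure D4:**
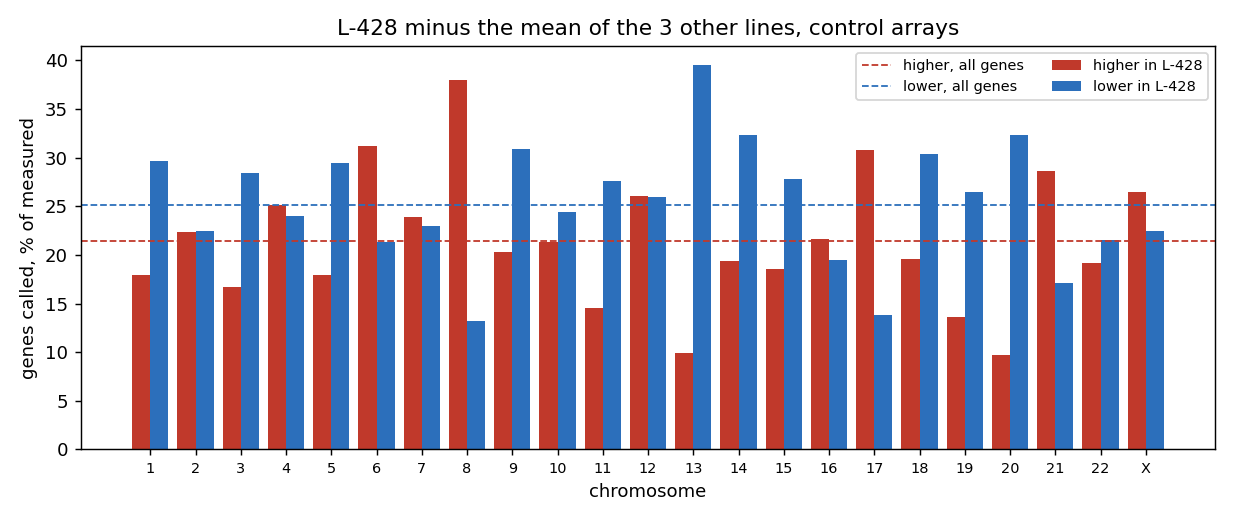
Percent of the measured genes of each chromosome (x axis) that were called higher (red) or lower (blue) in L-428 control arrays than in the mean of the other lines (y axis). Dashed lines are the shares over all genes; chromosome 8 stands out with 38.0% higher and chromosome 13 with 39.5% lower.

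The lines were compared in the same way on the 12 arrays with AEZS-136. Their group means come from other arrays than those of the control comparison, but both comparisons share the filter on detection and the estimate of spread of a single fit, and so are not separate data. With only the control arrays in the fit, 10003 probes were called in the control comparison. There 10161 probes were called (41.3%), 4765 higher and 5396 lower, so that 46.9% of calls were higher. This split depends on the scaling, since median scaling gave 35.5%. Of the 10150 probes called on control arrays, 8480 were called with the same sign on these arrays. Of the 2934 probes beyond each other line on control arrays, 2826 were called with the same sign and 2278 were again beyond each other line, 1461 of 1812 on the higher side and 817 of 1122 on the lower. All 28 genes chosen for their distance were called again with the same sign, PHGDH with 8.03, NDST4 with 7.79 and PITX1 with -7.02, and so were CD79B (1.79), FSCN1 (1.39) and IER3 (-0.72). The difference between both comparisons, that is, a response to AEZS-136 in L-428 unlike the mean response of the other lines, was called for 238 probes (0.968%), 90 of them among the 2934. Median scaling gave 41 such calls, and without replicate 1 of the L-428 arrays with AEZS-136 there were 154.

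**Figure D5:**
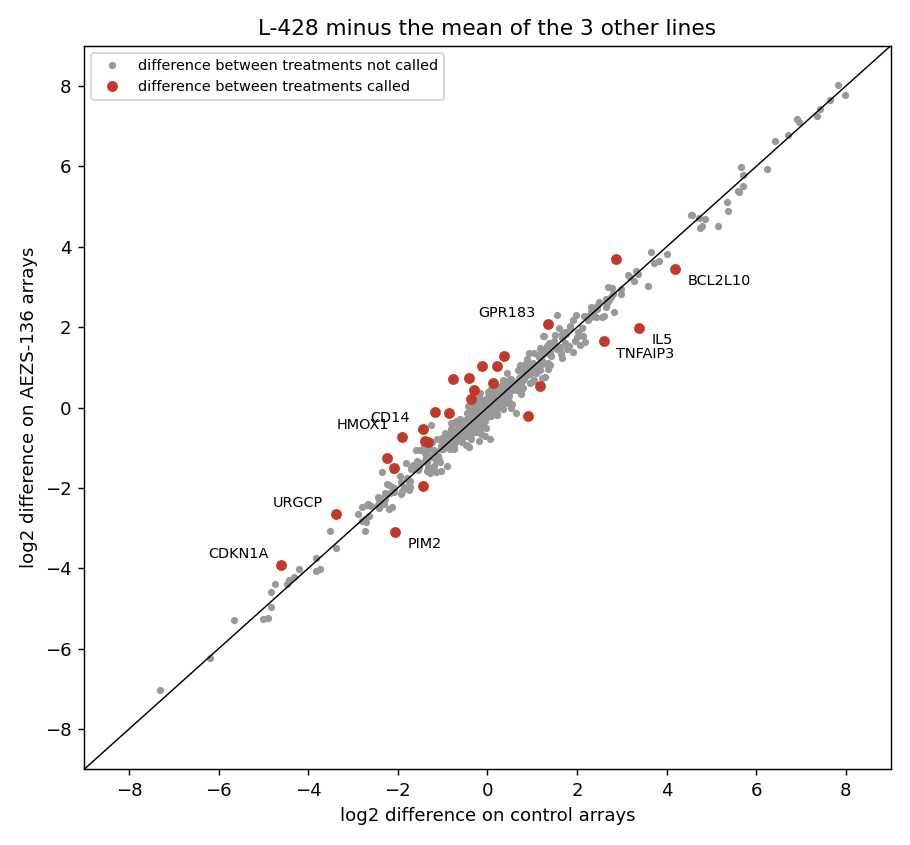
Log2 difference of L-428 from the mean of the other lines on control arrays (x axis) and on AEZS-136 arrays (y axis) for the genes of the lists and the genes chosen for distance, 1 point a gene. Points on the line have equal differences; red points are genes whose difference between treatments was called, such as IL5 (3.40 and 1.98).

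By their order of export, as inferred from a displaced run of the deposited table, the arrays were divided into 2 sets of 12, each with every group. The first set held 1 of the L-428 control arrays and the second held the other 2. With each set on its own, where a group with a single array is assumed to vary like the others, 9180 and 9507 probes were called in the main comparison against 10150 over both, and all 31 genes named for distance or by choice kept their call in both sets.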

How the data were processed

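RNA of 4 lines was measured on 24 Illumina bead arrays, 3 in each of 8 groups. The deposited table held a bead intensity and 1 minus the detection p-value per probe and array, exported by the authors with BeadStudio and not normalized, and the deposited series matrix held log2 values after the authors' robust spline normalization. Of 47323 probes, a run of 3270 was left out because its columns were displaced there, with detection values in place of signals. The displaced columns gave the order in which the arrays were exported. Intensities were background-corrected and quantile-normalized (neqc, offset 16) with limma 3.58.1 in R 4.3.3, and probes with a detection p under 0.05 on 3 or more arrays were kept. One linear model with 8 group means (16 residual degrees of freedom) and Benjamini-Hochberg adjustment over all kept probes gave the adjusted p-values. The fit was tried on simulated normal noise with shifts in the L-428 control arrays only. No differences between the other lines were simulated, so that this trial is no check of the comparison with their mean. Depth is not defined for arrays, and the number of arrays limits the precision. Gene names came from the platform annotation, with 30113 probes of 1 symbol, 8 of several and 17202 not listed. The genes named are the 14 each way with the greatest difference from the nearest line, CD79B, FSCN1 and IER3, and up to 4 called genes a list, those beyond each other line first. Other genes were named after their values were seen. The arrays, lists and genes were chosen with earlier results of these data known. A fold "at least" sets the bright group's mean against the lowest detected signal of each array where the other group was nowhere detected. Alternatives in normalization, filter, test and arrays were tried. Some listed genes are not reported here.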

Additional observations from a re-analysis of the deposited data

Results flagged for a closer look

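In 9 of the genes named by rule the difference between L-428 and the other lines was not the same on AEZS-136 as on control arrays, by the interaction term of the limma fit (238 probes, 0.968%, were called over all). The values below are the AEZS-136 difference minus the control difference. All 9 were named for their difference on control arrays, and the same control values enter the interaction term. This choice favours a smaller difference on the AEZS-136 arrays, and its part in the values below was not tested.

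For the 5 genes listed first the difference of L-428 from the mean of the other lines was smaller in size on AEZS-136 arrays. IL5 had -1.42 (adjusted p = 0.000743), with a response of -1.31 in L-428 and 0.48, -0.05 and -0.12 in KM-H2, L-540 and SUP-HD1. HMOX1 had 1.19 (adjusted p = 0.0182), with 1.13 in L-428 and -0.37, 0.16 and 0.06 in the others. BCL2L10 had -0.75 (adjusted p = 0.0199), with -0.72 against 0.10, 0.08 and -0.08. For URGCP the value was 0.74 (adjusted p = 0.0171), and L-428 had 0.32 against -0.39, -0.48 and -0.37. CD14 had 0.91 (adjusted p = 0.0130), with 0.38 in L-428 and -1.10, -0.42 and -0.07 elsewhere.

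The difference was also smaller for TNFAIP3 (-0.95, adjusted p = 2.49e-05), where L-428 had 0.01 and the others 0.92, 0.77 and 1.20, and for CDKN1A (0.68, adjusted p = 0.0221), where L-428 had 0.15 and the others -0.70, 0.06 and -0.93. It was larger for PIM2 (-1.04, adjusted p = 0.000724), with -0.76 in L-428 against 0.28, 0.10 and 0.44, and for GPR183 (0.72, adjusted p = 0.00445), with -0.46 against -0.50, -0.998 and -2.06. For GPR183 this holds for the mean only, since L-428 lay below L-540 and SUP-HD1 on control arrays and above KM-H2.

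With median scaling TNFAIP3 (adjusted p = 0.0284), PIM2 (0.00519) and IL5 (0.00175) were still called and the other 6 were not. With the deposited log2 values 8 were called, and URGCP had 0.40, just under the size set for a call. TNFAIP3, PIM2, IL5 and GPR183 were called whichever single array was left out. URGCP was lost without L-428 control replicate 2 (adjusted p = 0.0717) or AEZS-136 replicate 2 (0.0515), CD14 without L-428 AEZS-136 replicate 2 (0.0515), BCL2L10 without L-428 control replicate 1 (0.0858) or AEZS-136 replicate 3 (0.0912), HMOX1 without L-428 control replicate 1 (0.0775) or AEZS-136 replicate 2 (0.0515), and CDKN1A without L-428 control replicate 2 (0.0925) or AEZS-136 replicate 1 (0.0782) or 2 (0.0607).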

How the results depend on the processing

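The count of 10150 probes called between L-428 and the mean of the lines on control arrays was 6368 without background correction, 6184 with the deposited log2 values, 5597 when only probes detected on all 24 arrays were tested, and 2807 by the methods' t-test (59.6% higher). With probes detected on all 24 arrays, 6725 were called against KM-H2, 6737 against L-540 and 6495 against SUP-HD1. With this filter, 933 were higher and 904 lower than in each other line. The 1122 probes lower than in each other line became 672 without background correction, 641 with the deposited values and 749 with median scaling. On AEZS-136 arrays the 10161 calls became 6295 without background correction, 6137 with the deposited values, 5560 for probes detected on all 24 arrays and 3004 by the methods' t-test. The 238 calls of the difference between treatments became 41 with median scaling, which moved the median of all probes in this difference to -0.14, and 110 for probes detected on all 24 arrays. They became 0 in each export set alone in limma, where 2176 and 1980 probes had an unadjusted p under 0.05 and a difference over 0.4, against 1600 with all arrays. The methods' t-test pooled the arrays of the other lines, so that differences between those lines count in its spread. The limma fit takes only the spread of arrays within groups, and its p-values leave out variation between lines. Against single lines on control arrays, the t-test called 9391 probes for KM-H2, 8613 for L-540 and 8640 for SUP-HD1. Beyond this, the cause of these changes was not tested, other than that a stricter filter tests fewer probes.

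Leaving out single arrays gave 9821 to 10191 calls for the mean of the lines, 11033 to 11141 against KM-H2, 10624 to 10767 against L-540, 10254 to 10368 against SUP-HD1, 1797 to 1858 probes above and 1116 to 1182 below each other line, 9878 to 10188 on AEZS-136 arrays and 154 to 261 for the difference between treatments (158 without L-428 control replicate 2, 154 without L-428 AEZS-136 replicate 1). All 31 genes named for distance or by choice kept direction and call under every setting that could test them, except FSCN1 (adjusted p = 0.304) and IER3 (0.593) by the methods' t-test. Their sizes moved more: with the deposited values 15 of the 31 changed by over 1.5 times, such as CD79B to 0.90, TLCD3A to -1.69, URGCP to -1.72, DSE to -2.38, ATL1 to -2.62 and E2F2 to 3.19, and 14 did so without background correction. Only 5 of the 31 could be tested among probes detected on all 24 arrays. The 28 genes named for distance were chosen on the same control arrays, which favours keeping their call in every setting. The median of the interferon-induced genes was 1.13, 0.66 with the deposited values and 0.99 with all probes of a gene averaged.

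Replicate numbers did not pair the samples: same-numbered groups correlated at -0.17 to 0.15 in their deviations, and 4 of 12 control arrays correlated best with their own number. A replicate block gave 10144 calls for the mean of the lines, 11353, 10950 and 10564 against KM-H2, L-540 and SUP-HD1, 1809 and 1124 probes above and below each other line, 10140 on AEZS-136 arrays and 223 for the difference between treatments. Signal near background limits small differences of dim probes.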

Other observations

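Several families outside the comparisons above were also counted on control arrays, beside 21.4% higher and 25.1% lower over all genes. Cancer testis genes, which are normally silent outside the germ line, gave 4 of 23 higher in L-428 (17.4%) and 13 lower (56.5%), with a median of -1.04 and none of them beyond each other line. MAGEA4 was at 13.09 and MAGEA10 at 12.68 in KM-H2, and neither was detected in L-428, L-540 or SUP-HD1. MAGEB2, at 10.77 in L-428 and 11.84 in KM-H2, and MAGEB1, at 9.16 and 10.39, were shared by these lines. Metallothioneins, which bind zinc and copper, gave 4 of 5 lower, among them MT2A (-1.37), MT1G (-1.37) and MT1X (-1.24), while MT1F was detected in L-428 only (0.89). Of 12 S100 genes, which encode calcium-binding proteins, 2 were higher (16.7%) and 3 lower (25%), close to the shares over all genes. S100A4 was lower than in each other line (-1.40) and S100P differed by -1.13. S100A6 (3.13) and S100A11 (1.67) were highest in L-540, at 12.02 and 10.42.

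Of 24 receptor tyrosine kinases, 4 were higher (16.7%) and 9 lower (37.5%). EPHB1, a receptor of ephrins, was at 12.05 in L-428 and 9.87 in SUP-HD1 and undetected in KM-H2 and L-540. MST1R differed by 2.98, and TYRO3 (-2.27) was not detected in L-428. In the MYC network, 2 of 11 genes were higher (18.2%) and 4 lower (36.4%). MXD3 (1.21) was above each other line, MXD4 (-1.19) and MXI1 (-1.04) were below, and MAX differed by -0.60.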
